A study of Mus musculus with 4 samples.

Results

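The genes followed here were 10 members of the transforming growth factor beta (TGF-beta) superfamily, read in each cell type of mouse pancreatic tumours: the TGF-beta ligands Tgfb1, Tgfb2 and Tgfb3, their receptors Tgfbr1, Tgfbr2 and Tgfbr3, the activin subunits Inhba and Inhbb, the ligand Bmp4 and the activin inhibitor Fst. They were taken by symbol from the gene list of the count matrices, where 10 of 10 were found among 32285 genes. The tumours were grown from Pan02, a mouse pancreatic adenocarcinoma cell line, under the skin of female C57BL/6 mice of 6 to 7 weeks, and mice were assigned to groups at a tumour size of about 50 mm3. The control library came from mice given IgG. The anti-PD-1 library came from mice given clone RMP1-14 against PD-1, an inhibitory receptor of T cells, at 200 µg per injection. The anti-LIF library came from mice given an antibody against the cytokine LIF, and the combo library from mice given both. Injections were given 3 times a week, with IgG or anti-LIF at 25 mg/kg, and the protocol text reads as if every mouse received anti-PD-1 along with one of these. The groups here rest on the treatment label of each sample. All groups carried the same graft. Material from 3 samples was combined into each single-cell library, so each group was 1 library, no animal can be told apart and no difference between groups was tested. The labels call the samples Pan02 cancer cells, but the libraries held the whole tumour, stroma and immune cells included.

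TGF-betas and activins are secreted dimers that bind a type II receptor, which then activates a type I receptor and, through it, SMAD2 and SMAD3. BMPs use related receptors and signal through SMAD1, SMAD5 and SMAD9. TGF-beta is stored in a latent form and must be freed, and in pancreatic tumours the pathway is known for its part in the stroma, where it drives matrix-producing myofibroblasts, and for restraining T cells. Activin A, the dimer of the Inhba product, shares the SMAD2 and SMAD3 arm, and follistatin, the Fst product, binds activins and keeps them from their receptors.

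After filtering, the control library held 18640 cells, the anti-PD-1 library 14392, the anti-LIF library 14014 and the combo library 16397, with median counts of unique molecular identifiers (UMIs, each 1 captured transcript) between 1674.5 and 2288 per cell. Pairs of libraries shared 277 to 392 cell barcodes, at most 2.27% of the smaller library. Of 32 clusters, those with clear marker genes were named, and each name stands for cells resembling that type. The control library stood apart in makeup: macrophages and monocytes were 3.03% of its cells against 28.5% to 32.7% in the others, and cancer cells 37.8% against 18.6% to 30.5%. Cancer cells were also deeper in control, with a median of 7881 UMIs against 2157 to 2840. All 3 treated libraries were compared with this 1 control library, so the 3 ratios of a gene share it. Levels are counts per 1000000 UMIs (CPM) summed over a class in a library. Values given 4 at a time are in the order control, anti-PD-1, anti-LIF and then combo, ratios given 3 at a time in the order of the treated libraries, and brackets hold 95% intervals that cover counting error only. Since a kit for 3' ends was used, levels are compared between cell classes and libraries and not between genes.

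Of the 7 classes compared here, fibroblasts had the highest level of 2 of the 3 TGF-beta ligands. Tgfb3 (chr12:86056745-86079041, minus strand; all positions are in GRCm38) had 23037 UMIs in the kept cells, 53.5% of them in fibroblasts and 35.6% in cancer cells, shares that moved with the makeup of the libraries. Fibroblasts held 23.0%, 35.0%, 73.8% and 69.2% of Tgfb3 UMIs, and cancer cells 63.7%, 46.8%, 19.9% and 22.8%. Its level in fibroblasts averaged 238 CPM over the 4 libraries (147 to 301) and did not overlap that of cancer cells, the next class, at 60.4. Tgfb2 (chr1:186622792-186705989, minus strand) had 4295 UMIs, 88.1% of them in fibroblasts. It averaged 65.7 CPM there (49.7 to 87.9) and 21.9 in endothelial cells (11.7 to 28.4), again without overlap, and at most 1.49 in each of the other 5 classes compared. Tgfb1 (chr7:25687002-25705077, plus strand), the form made by many immune cells, was sparse, with 2950 UMIs. Among the compared classes T cells averaged 24.9 CPM (18.2 to 32.3) and macrophages 16.5 (13.3 to 20.5), ranges that overlapped, and fibroblasts were lowest at 4.69 CPM. Of the 7 compared classes fibroblasts thus led for Tgfb2 and Tgfb3, and T cells for the sparse Tgfb1.

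Receptor levels were spread over more classes. Tgfbr2 (chr9:116084293-116175360, minus strand), the type II receptor that binds the ligand first, averaged 315 CPM in fibroblasts (271 to 334), apart from T cells at 175, endothelial cells at 153 and cancer cells at 129. Tgfbr1 (chr4:47353222-47414931, plus strand), the type I receptor, was, among the 7 compared classes, highest in macrophages at 76.9 CPM (58.3 to 105), without overlap with neutrophils, the next class, at 43.7. Tgfbr3 (chr5:107106570-107289629, minus strand), the co-receptor betaglycan, averaged 179 CPM in fibroblasts and 101 in endothelial cells (78.2 to 122), and the cancer cell average was 18.4. Fibroblasts held 65.6% of all Tgfbr3 UMIs, but 37.9% in control, where cancer cells held 49.1%.

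The activin and BMP genes were mainly of the cancer cells and the vessels. Inhba (chr13:16011851-16031621, plus strand), which encodes the activin A subunit, had 53755 UMIs, 78.3% in cancer cells (53.2% to 87.2% by library), with a cancer cell average of 251 CPM (138 to 372). Its activin-binding inhibitor Fst (chr13:114452290-114458951, minus strand) had 73895 UMIs, 79.5% in cancer cells (57.2% to 87.4% by library), and averaged 363 CPM there (189.9 to 519) against 165 in fibroblasts (143 to 198). Bmp4 (chr14:46383520-46390669, minus strand) had 84032 UMIs, 88.0% in cancer cells, at 496 CPM (429 to 548), a range none of the other 6 compared classes reached. Endothelial cells carried Bmp4 at 120.2 CPM on average (102 to 131). Inhbb (chr1:119415465-119422248, minus strand), the activin B subunit, differed from Inhba in place: of the compared classes endothelial cells led at 85.3 CPM (66.1 to 114), apart from fibroblasts at 36.5 and cancer cells at 12.5. By UMIs the order was different. Of 5131 Inhbb UMIs, 688 were in endothelial cells, fewer than the 1199 in fibroblast cluster 5 or the 1107 in cancer cell cluster 6.

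Genes this abundant in 1 cell type can also leave free RNA in other cells. For each class the share of the cancer cell and fibroblast marker lists was used to read off the level that such RNA would give, called the spill level here. The cancer list was not of cancer cells alone. It was at 11262, 14267, 12281 and 11870 CPM in gland epithelium of the host, against 1436, 1475, 2665 and 2210 in cancer cells. That epithelium gave 1.15%, 0.603%, 1.64% and 1.58% of UMIs. Its RNA would raise the spill level, and its part was not tested. In T cells Bmp4 stood at 27.0, 28.6, 7.19 and 7.72 CPM, against spill levels of 41.4, 36.2, 15.9 and 16.9. In endothelial cells, by contrast, Bmp4 was at 122, 102, 131 and 126 CPM against spill levels of 51.1, 40.4, 14.0 and 30.6, over 1.5 times the spill level in all 4 libraries. A level at or below the spill level is taken as background here, not as expression of that class.

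**Figure D1:**
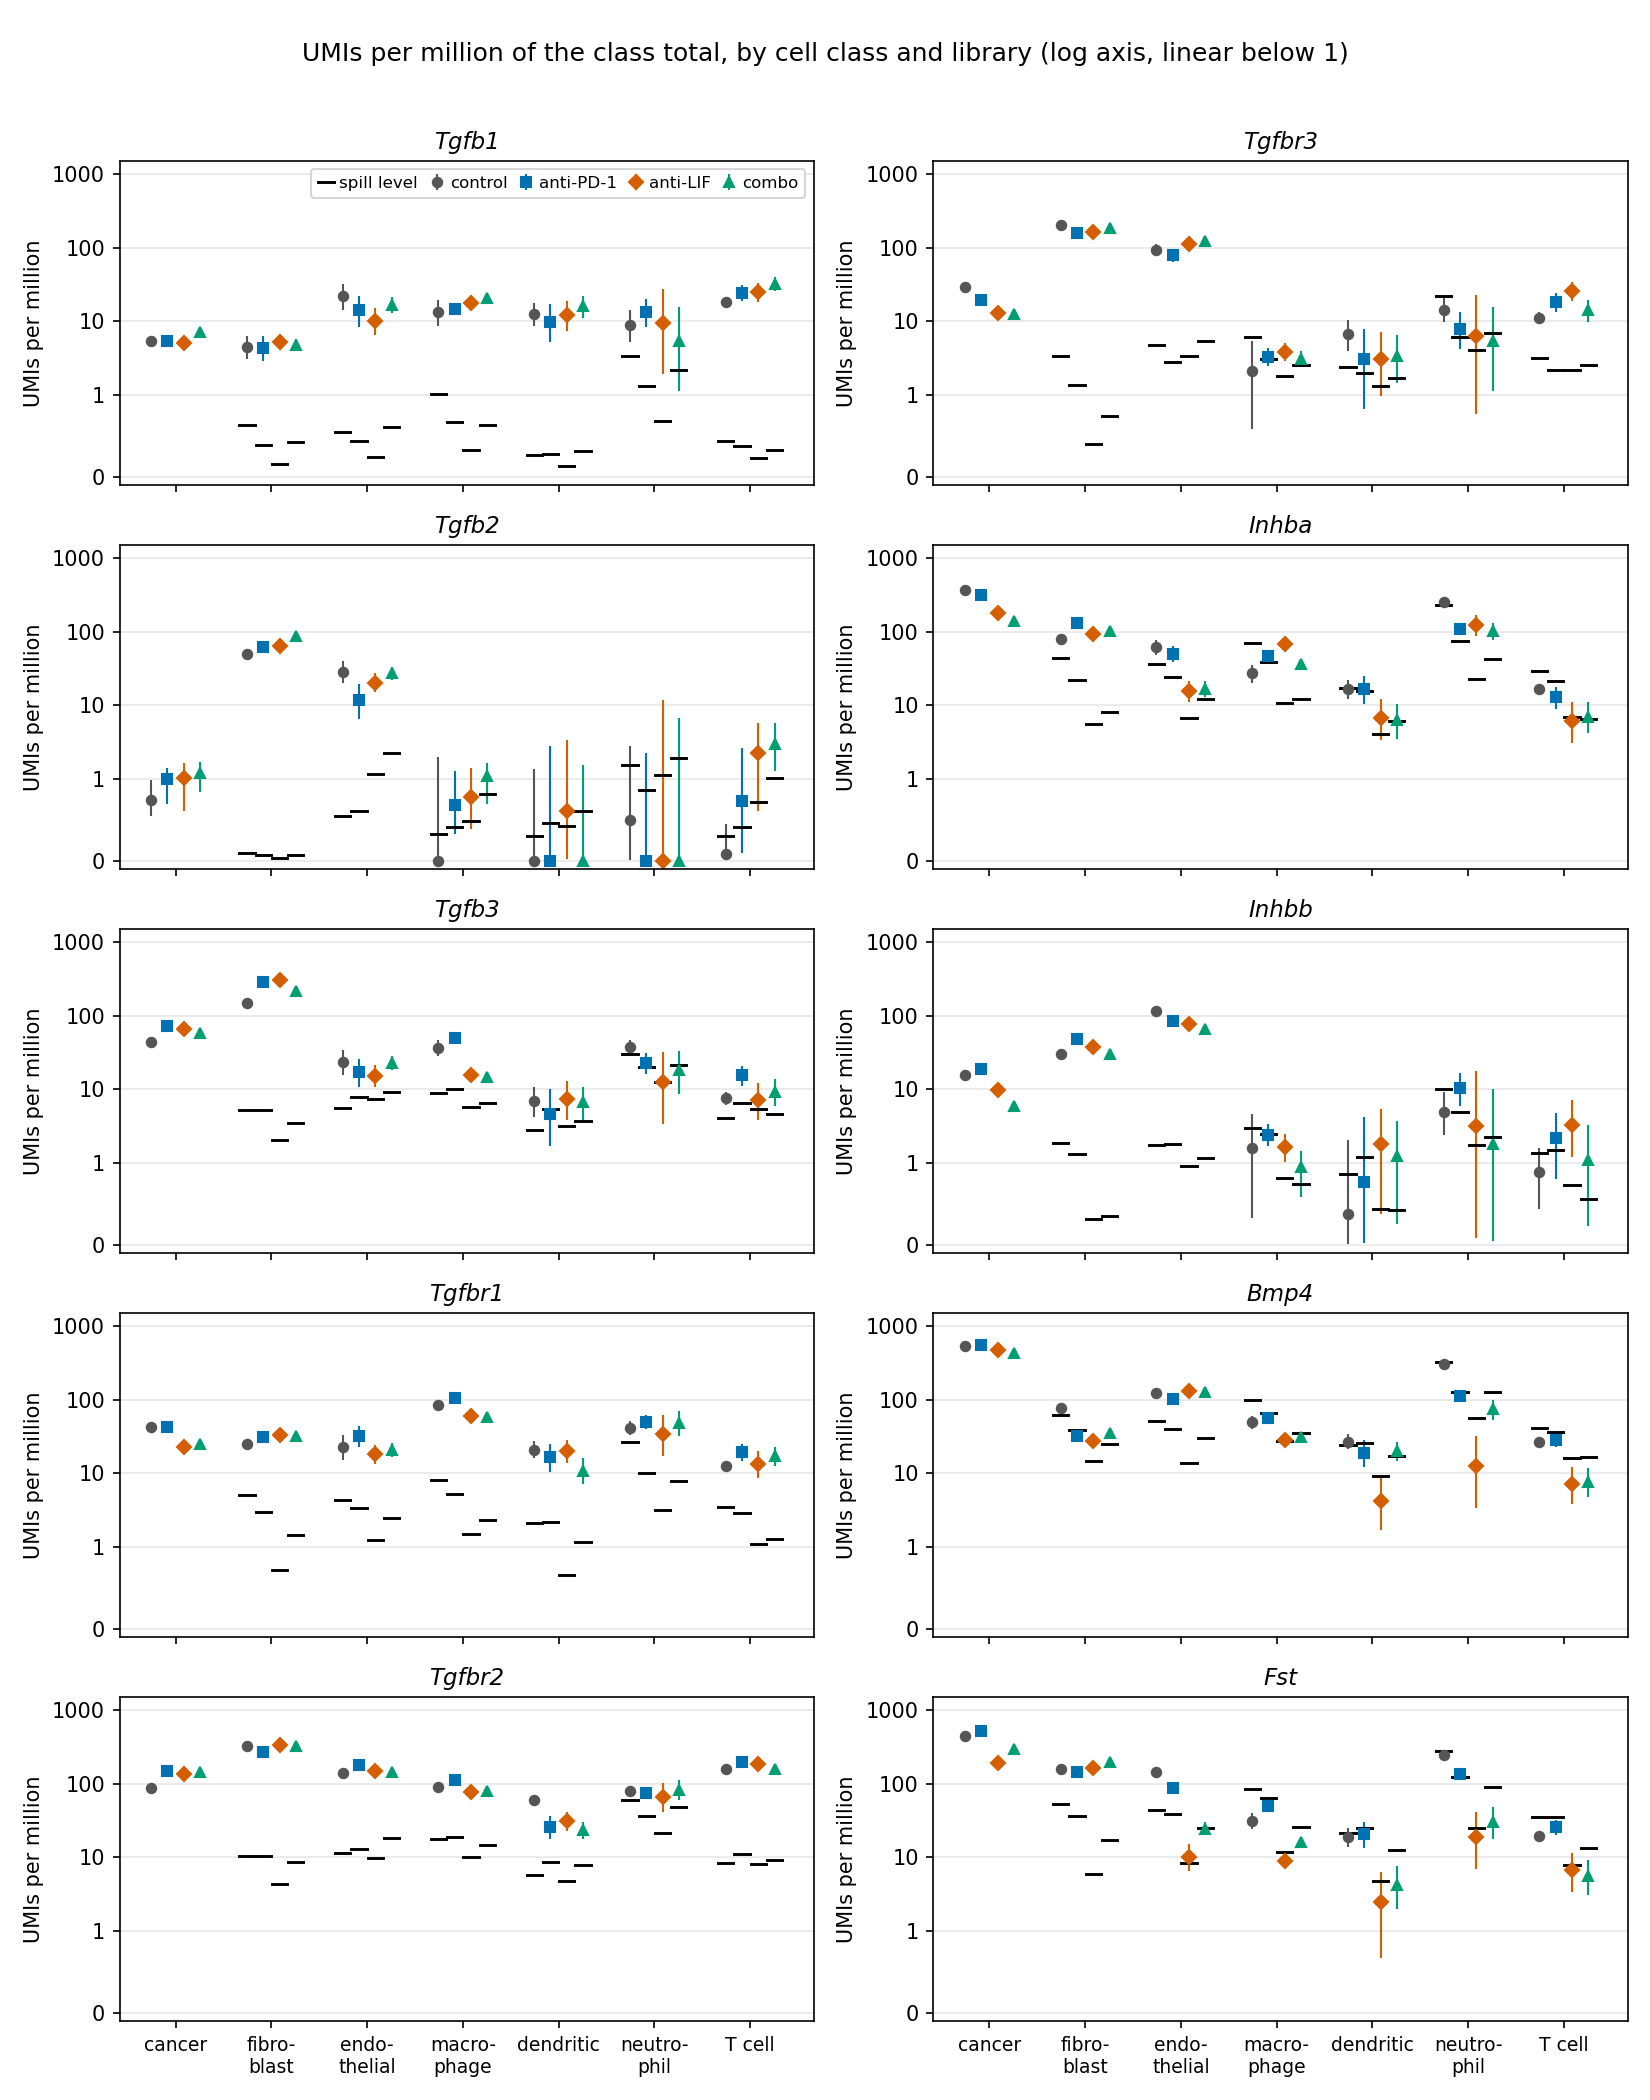
Level of each of the 10 genes (CPM of the class total, log axis that is linear below 1) in 7 cell classes, with 1 point per library and 95% Poisson intervals. Black bars mark the spill level outside cancer cells. Tgfb2, Tgfb3, Tgfbr2 and Tgfbr3 peaked in fibroblasts, Inhba, Bmp4 and Fst in cancer cells, Inhbb in endothelial cells and Tgfbr1 in macrophages.

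The 250 bases before the start of the Inhba and Bmp4 genes are shown because these ligand genes were both mainly of the cancer cells yet differed in their ratio under anti-LIF (values follow). Sequences are from RefSeq's promoter table for GRCm38.p6, and capitals mark CG dinucleotides. The Inhba stretch (chr13:16011601-16011850, plus strand) holds 3 CG and is 43.2% G or C. The Bmp4 stretch (chr14:46390670-46390919, minus strand, written 5′ to 3′ on that strand) holds 11 CG and is 63.2% G or C. Over 32851 promoters of the table the median was 6.0 CG in such a stretch, with quartiles of 2 and 16.
Inhba: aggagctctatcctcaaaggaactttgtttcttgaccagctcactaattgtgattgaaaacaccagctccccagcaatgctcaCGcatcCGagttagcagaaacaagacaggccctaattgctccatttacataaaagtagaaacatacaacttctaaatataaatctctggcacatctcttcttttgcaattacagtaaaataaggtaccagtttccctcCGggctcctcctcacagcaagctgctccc
Bmp4: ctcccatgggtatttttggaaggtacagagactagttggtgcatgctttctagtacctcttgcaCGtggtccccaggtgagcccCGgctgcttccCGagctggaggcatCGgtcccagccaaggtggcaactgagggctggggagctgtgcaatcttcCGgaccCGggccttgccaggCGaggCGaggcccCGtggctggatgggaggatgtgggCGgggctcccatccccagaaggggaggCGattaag
Searching 300-base windows, from 250 bases before to 50 after the start, on both strands for AP-1 (TGACTCA), CRE (TGACGTCA), the SMAD palindrome (GTCTAGAC) and STAT (TTCNNNGAA) gave 0 matches in the 8 promoters of the 7 members that the table holds. These letters were in 5.20%, 1.79%, 0.213% and 8.30% of all promoters. No match says only that the letters are not in these windows.

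Across treatments, the 10 genes in 7 classes gave 70 pairs, and a pair was compared if both libraries together held at least 50 UMIs. Past 2-fold were 6 of 56 pairs under anti-PD-1 (1 higher, 5 lower), 22 of 58 under anti-LIF (3 higher, 19 lower) and 16 of 58 under combo (0 higher, 16 lower). Over all genes and the same classes, 8.37%, 12.9% and 11.8% of pairs were past 2-fold, with 4.93%, 7.01% and 6.42% higher and 3.43%, 5.86% and 5.38% lower. Many of the members' lower pairs were Inhba, Bmp4 or Fst in classes where the level was background. Cancer cells gave 63.7% of the UMIs in control, 51.3% in anti-PD-1 and 32.6% and 32.5% in the libraries with anti-LIF, and the part of this in the counts was not tested. Of the pairs whose higher level exceeded 1.5 times spill, 3 of 40 (1 higher, 2 lower), 10 of 44 (3 higher, 7 lower) and 7 of 44 (all lower) were past 2-fold.

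In cancer cells the activin axis was lower in both libraries with anti-LIF. Inhba was at 372, 313, 179 and 138 CPM. The library order thus ran from control down to combo, with log2 ratios of -0.25 [-0.28, -0.21], -1.05 [-1.11, -1.0] and -1.43 [-1.48, -1.38]. Its inhibitor Fst was at 451, 519, 189.9 and 292 CPM. Fst was lowest in anti-LIF, with a log2 ratio of -1.25 [-1.30, -1.20], and at -0.63 [-0.66, -0.59] in combo and 0.20 [0.18, 0.23] in anti-PD-1. Bmp4 stayed within 2-fold throughout, at 529.8, 548, 476 and 429 CPM.

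Of the 10 members, all compared in cancer cells, 0 were past 2-fold under anti-PD-1, 3 under anti-LIF and 3 under combo, all lower, where 7.21%, 15.7% and 12.9% of all genes were past 2-fold in either direction. The median log2 ratio of the members was 0.13, -0.40 and -0.47, beside 0.18, 0.21 and 0.19 over all genes. Beside Inhba and Fst these included the co-receptor Tgfbr3, at 28.7, 19.4, 12.8 and 12.5 CPM, with log2 ratios of -1.16 [-1.36, -0.96] and -1.19 [-1.36, -1.03] under anti-LIF and combo. Inhbb stood at 15.5, 18.9, 9.88 and 5.93 CPM and was the third gene past 2-fold under combo (-1.38 [-1.62, -1.15]). Tgfbr1 was lower within 2-fold, at 43.0, 42.0, 22.9 and 24.8 CPM.

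The cancer cells were not 1 uniform population, and their mix differed between libraries. Cluster 6, led by Enpp2, Ereg, Il11 and Cxcl5, made up 40.0%, 18.4%, 4.30% and 5.35% of cancer cells. It was named a cancer cell cluster by its low level of Xist, the transcript of the inactive X chromosome, although its fibroblast markers outscored its cancer markers. Cluster 11, led by Prl2c2, Prl2c3 and the cell division gene Anln, went the other way, at 3.00%, 9.61%, 35.3% and 32.5%. Cluster 0, at 18.9%, 43.3%, 43.0% and 44.6%, was shallow, with a median of 889 UMIs per cell.

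Inhba and Fst followed these clusters. In cluster 6 Inhba was at 638, 679, 569.7 and 346 CPM. In cluster 11 it was at 97.8, 133, 112 and 94.9 CPM, so the 2 clusters did not overlap in any library. Fst was at 623, 862, 712 and 941 CPM in cluster 6 and at 136, 180.2, 97.3 and 138 CPM in cluster 11. Within cluster 6 every treated library was thus above control for Fst. In the shallow cluster 0 Fst was at 375, 412, 189 and 270.1 CPM, with log2 ratios of -0.98 [-1.19, -0.78] under anti-LIF and -0.47 [-0.64, -0.31] under combo. Inhba was there at 233, 233, 202 and 129 CPM. In cluster 2 Fst was at 326, 508, 331 and 457 CPM and Inhba at 164, 221, 271 and 178. Lower levels within a cluster were thus seen in cluster 0 for both genes, in cluster 11 for Fst under anti-LIF and in cluster 6 for Inhba, mainly under combo. Bmp4 differed less between clusters, at 569, 576, 656 and 543 CPM in cluster 6 and 297, 365, 379.9 and 340.2 in cluster 11.

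Each treated library was also weighted to the cluster mix of control. The weights were shares of control UMIs, not of cells: 3.13% for cluster 0, 48.7% for cluster 2, 44.0% for cluster 6 and 4.14% for cluster 11. Cluster 6 held 113 cells in anti-LIF and 163 in combo. With this weighting the anti-LIF log2 ratio of Inhba was 0.08 in place of -1.05 and that of Fst 0.10 in place of -1.25. Under combo, Inhba was at -0.59 and Fst at 0.53 with this weighting, and under anti-PD-1 at 0.17 and 0.52. The lower class levels of Inhba and Fst under anti-LIF were therefore not present at the control mix, and combo kept part of the difference for Inhba but reversed it for Fst. Tgfbr3 was at -0.24, -0.69 and -0.37 with this weighting, and Inhbb at 0.74, 0.59 and -0.61. Tgfbr1 was at 0.27, -0.02 and 0.06. Whether a mix of clusters or levels within cells changed with treatment cannot be told from 1 library per group, and the part of cell depth was not tested.

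**Figure D2:**
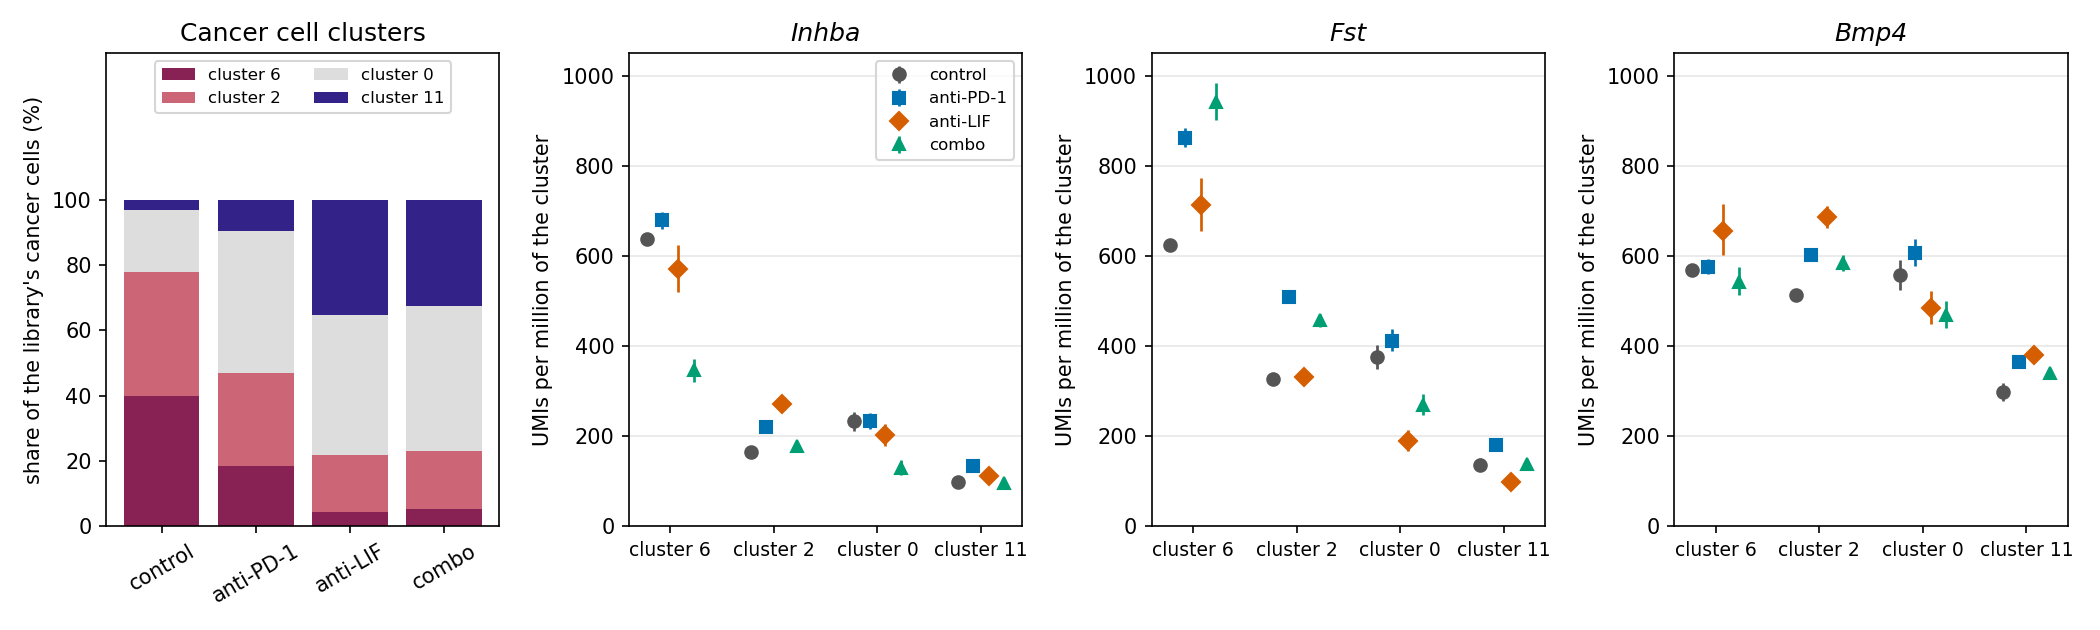
Left, share of each library's cancer cells in 4 clusters (%). Right, Inhba, Fst and Bmp4 in each cluster (CPM of the cluster, 95% Poisson intervals), 1 point per library. Cluster 6 was 40.0% of cancer cells in control and 4.30% in anti-LIF and held the highest Inhba and Fst levels in every library.

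A pair of members was higher in cancer cells of every treated library, and within clusters as well. Tgfbr2 was at 87.2, 147, 136 and 144 CPM, with log2 ratios of 0.76 [0.70, 0.81], 0.64 [0.57, 0.71] and 0.73 [0.67, 0.78]. Control was the lowest library in all 4 clusters, from 83.3 to 93.4 CPM, while the treated libraries lay between 129 and 165. Tgfb3 was at 44.1, 73.4, 65.4 and 58.8 CPM, with log2 ratios of 0.74 [0.66, 0.82], 0.57 [0.47, 0.67] and 0.42 [0.33, 0.50]. Its 12 ratios within clusters ran from 0.56 to 1.13 and those of Tgfbr2 from 0.48 to 0.87. At the control mix Tgfb3 was at 0.87, 0.93 and 0.81. None of these reached 2-fold as class values. The stress gene list, which rises when cells are dissociated, was at 4390 CPM in cancer cells of control and 5943, 4446 and 5280 in the treated libraries, and its part was not tested. Tgfb1, at 5.32, 5.39, 5.05 and 7.09 CPM, and Tgfb2, at 0.743, 0.999, 1.02 and 1.20 CPM, were low in all libraries.

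**Figure D3:**
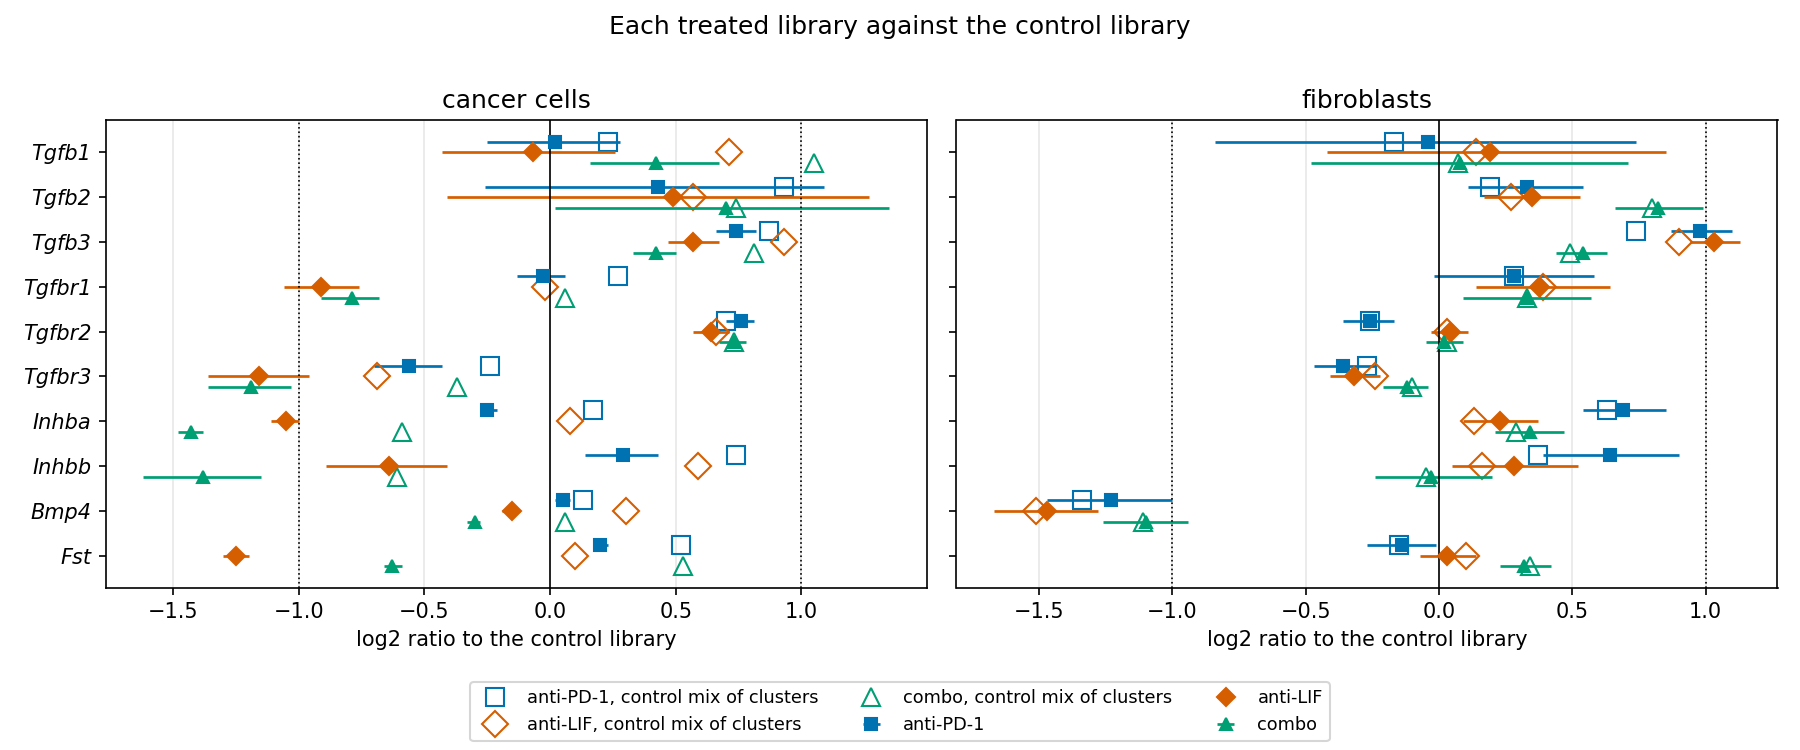
Log2 ratio of each treated library to control for the 10 genes in cancer cells and fibroblasts. Filled points are class levels with 95% intervals for counting error, open points the same at the cluster mix of control, and dotted lines mark 2-fold. In cancer cells Inhba and Fst under anti-LIF moved from -1.05 and -1.25 to 0.08 and 0.10, while Tgfbr2 stayed between 0.64 and 0.76 as a class value.

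In fibroblasts the ligand that stood out was Tgfb3. It was at 147, 291, 301 and 213 CPM. Control was the lowest library, with log2 ratios of 0.98 [0.87, 1.10], 1.03 [0.94, 1.13] and 0.54 [0.44, 0.63], and 0.74, 0.90 and 0.49 at the control mix of clusters. Tgfb2 was at 49.7, 62.3, 63.2 and 87.9 CPM, highest in combo with a log2 ratio of 0.82 [0.66, 0.99]. Inhba was at 80.4, 130.1, 94.2 and 102 CPM, so it was not lower here in the libraries where cancer cells had less. Its fibroblast ratios were 0.69 [0.54, 0.85], 0.23 [0.09, 0.37] and 0.34 [0.21, 0.47].

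Past 2-fold in fibroblasts were 1 of 10 members under anti-PD-1, 2 under anti-LIF and 1 under combo, beside 6.65%, 7.01% and 7.26% of all genes. The members' median log2 ratio was 0.12, 0.21 and 0.20, beside 0.01, -0.01 and 0.02 over all genes. Among these in each library was Bmp4, at 76.5, 32.6, 27.5 and 35.7 CPM, which was not over 1.5 times its spill level of 62.9 in control. The cancer marker list in fibroblasts was at 11.9%, 7.07%, 3.14% and 5.91% of its level in cancer cells. Receptors and follistatin were within 2-fold: Tgfbr2 at 325, 271, 334 and 330.3 CPM, Tgfbr3 at 204, 159, 164 and 187, Tgfbr1 at 25.3, 30.8, 33.1 and 31.8, and Fst at 158, 143, 162 and 198.

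The ligands differed between the 2 fibroblast clusters. Cluster 5 was led by C1qtnf3, Lrrc15 and Col12a1, of which Lrrc15 marks TGF-beta driven myofibroblasts of tumours, and cluster 3 by Ptx3, Tnfaip6, Has1 and Cxcl13, genes of an inflammatory kind of fibroblast. Tgfb3 was at 289, 516, 515 and 431 CPM in cluster 5 against 74.4, 107, 149.7 and 92.0 in cluster 3. Tgfb2 was at 68.3, 90.3, 88.4 and 144 CPM against 40.2, 39.4, 45.4 and 56.6, and Inhbb at 60.8, 87.8, 61.6 and 51.1 against 15.2, 15.2, 20.1 and 18.5. Both were higher in cluster 5 in each library. The co-receptor Tgfbr3 ran the other way, at 111, 113, 95.2 and 73.8 CPM in cluster 5 against 252, 197, 212 and 250.4 in cluster 3.

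Inhba showed the widest gap between the 2 fibroblast clusters in the combo library. It was at 139.8, 156, 145 and 229 CPM in cluster 5 and at 50.1, 109, 58.6 and 31.5 CPM in cluster 3. In combo the clusters thus lay farthest apart with cluster 5 at its highest level and cluster 3 at its lowest. As a class, fibroblasts had Inhba over 1.5 times spill in all 4 libraries, but spill was not worked out per cluster. The cancer marker list in fibroblasts was at 11.9% of its cancer cell level in control and 5.91% in combo. The part of cancer cell RNA in the cluster 3 levels was not tested. Cluster 5 made up 37.7%, 60.9%, 52.5% and 44.3% of fibroblasts, and Fst did not keep 1 order between the clusters: 194, 146, 106 and 147 CPM in cluster 5 against 139.5, 141, 201 and 226 in cluster 3.

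**Figure D4:**
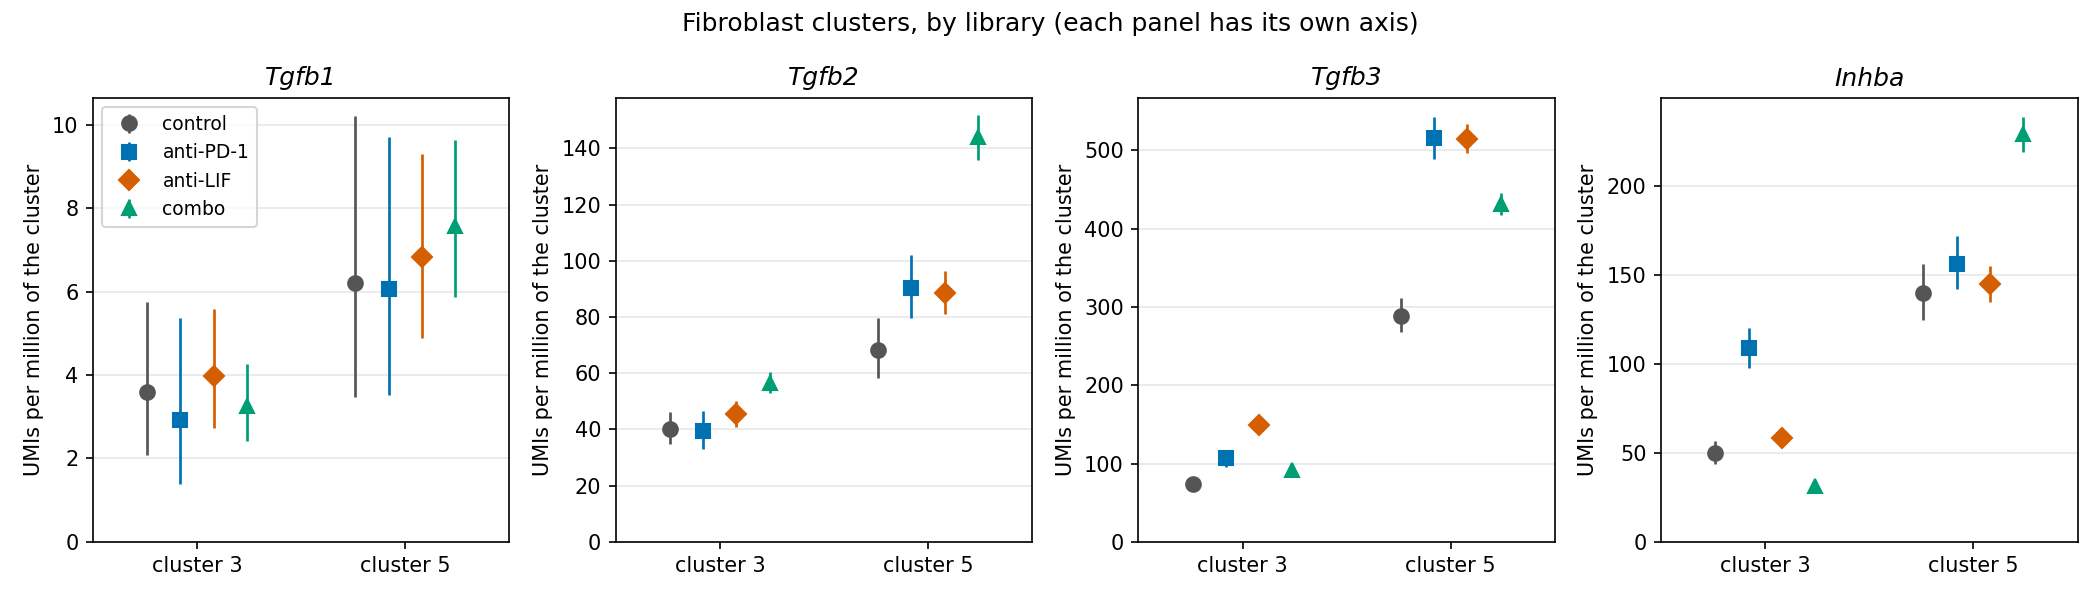
Tgfb1, Tgfb2, Tgfb3 and Inhba in fibroblast clusters 3 and 5 (CPM of the cluster, 95% Poisson intervals, 1 point per library, each panel with its own axis). Tgfb3 was at 289 to 516 in cluster 5 and 74.4 to 149.7 in cluster 3, with control lowest in both.

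Macrophages gave the members' opposite case, Inhba higher under anti-LIF. It was at 27.1, 46.7, 68.4 and 35.8 CPM, with log2 ratios of 0.77 [0.37, 1.22], 1.32 [0.93, 1.77] and 0.39 [-0.01, 0.84]. The spill level ran against this order, at 70.1, 38.5, 10.8 and 12.2 CPM, so in control the level was background and in anti-LIF it was not. The highest levels were in cluster 18, led by Mmp12, Gpnmb and Arg1, where Inhba was at 314, 370.0 and 125 CPM in the treated libraries. That cluster was 0.885% of macrophages in control, with 5 cells, and 1.59%, 7.82% and 7.97% in the others. At the control mix of the 3 clusters with enough control cells, cluster 18 not among them, the anti-LIF ratio was 0.25, and with each cell's class set by its own markers it was -0.84, so the direction of this ratio is not settled by these data.

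Tgfb3 in macrophages was at 36.7, 49.1, 15.6 and 14.9 CPM, over 1.5 times spill in each library. It was thus lower in both libraries with anti-LIF, the reverse of fibroblasts, with log2 ratios of -1.24 [-1.63, -0.82] and -1.31 [-1.68, -0.90]. At the control mix these were -0.83 and -0.73, inside 2-fold. In cluster 7, led by Apoe, C1qa and C1qc, it was at 43.6, 66.9, 17.5 and 17.0 CPM. The fall was smaller in cluster 4, at 42.2, 61.4, 32.9 and 35.6 CPM. Cluster 10 was at 13.4, 12.9, 11.9 and 16.9, so combo was above control there. Control held 23 Tgfb3 UMIs in cluster 4 and 4 in cluster 10. The receptor Tgfbr1 was at 84.6, 105, 60.2 and 58.3 CPM, with log2 ratios of 0.30, -0.50 and -0.54, and of 0.40, -0.01 and -0.10 at the control mix. Tgfbr2 was at 90.5, 114, 78.0 and 80.7 CPM and Tgfb1 at 13.3, 14.5, 17.7 and 20.5. Past 2-fold were 0 of 8 members compared under anti-PD-1, 3 under anti-LIF and 1 under combo, beside 6.45%, 10.5% and 10.8% of all genes. The control library held 565 macrophages against 4530 to 4679, so its levels rest on few UMIs, 51 for Inhba and 69 for Tgfb3.

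T cells carried the highest average Tgfb1 level of the 7 compared classes, and it was higher in each treated library than in control. It was at 18.2, 24.2, 24.9 and 32.3 CPM, with log2 ratios of 0.42 [-0.01, 0.81], 0.46 [-0.04, 0.92] and 0.83 [0.46, 1.19]. Only the combo interval lay clear of 0, and none passed 2-fold. The clusters of T cells also shifted: cluster 9, led by Foxp3 of regulatory T cells, was 17.4% of T cells in control and 22.2%, 45.2% and 51.2% in the others, and cluster 12, with the killer genes Gzmf and Prf1, was 27.6%, 13.1%, 5.93% and 4.37%. At the control mix the Tgfb1 ratios were 0.52, 0.69 and 1.09. Cluster 12 carried 40.0% of that weight, and Tgfb1 rested there on 20, 6 and 9 UMIs in the treated libraries.

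The receptor Tgfbr2 in T cells was near level, at 161, 196, 184 and 159 CPM. Tgfbr3 was at 11.2, 18.0, 25.5 and 14.0 CPM and passed 2-fold under anti-LIF (1.19 [0.67, 1.67], 46 UMIs against 140 in the larger control class), with 1.39 at the control mix. The control mix value leans on cluster 12, where anti-LIF held 6 Tgfbr3 UMIs in 77 cells. Tgfb3 was at 7.55, 15.4, 7.19 and 9.19 CPM and passed 2-fold under anti-PD-1 alone (1.04 [0.47, 1.57]). Past 2-fold were 1 of 8 members under anti-PD-1, 4 under anti-LIF and 3 under combo, beside 6.50%, 11.2% and 10.1% of all genes. Of those under anti-LIF and combo, 3 in each were Inhba, Bmp4 and Fst at levels not over 1.5 times spill.

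Endothelial cells led the compared classes in Inhbb, which was at 114, 84.4, 77.1 and 66.1 CPM. Control was the highest library, with log2 ratios of -0.43 [-0.81, -0.06], -0.56 [-0.89, -0.23] and -0.79 [-1.09, -0.48], all within 2-fold. Bmp4, at 122, 102, 131 and 126 CPM, and Tgfbr2, at 141, 179.8, 147 and 146 CPM, were near level. Tgfbr3 was at 92.6, 78.2, 110.1 and 122 CPM. The class was 1 cluster with the pericyte gene Rgs5 among its leading genes, and mural cells were not separated from it.

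Among the pairs above spill, Fst in endothelial cells had the largest ratio. It was at 145, 88.3, 10.2 and 24.6 CPM, with log2 ratios of -0.72 [-1.07, -0.37], -3.81 [-4.52, -3.22] and -2.56 [-2.94, -2.20]. The 10 cells with most Fst UMIs held 61.5%, 80.5%, 45.8% and 49.0% of them, and the level over spill was 3.28, 2.25, 1.22 and 0.980. Inhba was at 61.7, 50.0, 15.7 and 16.6 CPM (-0.30, -1.97 and -1.89), with 52.6% to 73.4% of its UMIs in 10 cells. With 24 Fst UMIs in anti-LIF, a share held by 10 cells shows no concentration there. The part of cancer cells caught with endothelial cells was not tested. Tgfb2 was lower under anti-PD-1 (28.4 against 11.7 CPM, -1.25 [-2.26, -0.37], 15 UMIs in 9 cells) and Tgfb1 under anti-LIF (21.9 against 10.2 CPM, -1.11 [-1.97, -0.26]). Past 2-fold were 1 of 9 members under anti-PD-1, 3 of 10 under anti-LIF and 2 of 10 under combo, beside 5.55%, 8.03% and 8.55% of all genes.

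In dendritic cells the member with a change above spill was the receptor Tgfbr2, at 59.4, 25.9, 31.1 and 23.4 CPM. Control was the highest library, with log2 ratios of -1.18 [-1.78, -0.66], -0.93 [-1.42, -0.47] and -1.34 [-1.81, -0.90]. The class was 1 cluster, with Xcr1, Cd209a and Ccr7 among its leading genes. Kinds of dendritic cell were not separated, and the part of their mix was not tested. Past 2-fold were 1 of 5, 3 of 6 and 3 of 6 members, beside 12.4%, 15.3% and 13.4% of all genes. In neutrophils 2, 4 and 3 of 6 members were past 2-fold, all lower and none over 1.5 times spill in its higher library, beside 17.0%, 29.6% and 26.5% of all genes. Cluster 26 held 0%, 43.6%, 34.1% and 11% of neutrophil UMIs. Within cluster 14, the rest of the class, Inhba and Bmp4 were at -0.66 and -0.82 under anti-PD-1, inside 2-fold, and Inhba at -0.58 under anti-LIF. Other levels stayed far below control within cluster 14. Bmp4 was there at 308, 174, 19.0 and 82.9 CPM and Fst at 246, 216, 28.6 and 32.4. The anti-LIF values rest on 4 and 6 UMIs. Inhba was there at 97.1 CPM in combo against 252 in control. Inhba in neutrophils was at 252, 108, 122 and 101 CPM against spill levels of 231, 74.1, 22.6 and 42.8, so it was over 1.5 times spill in anti-LIF and combo alone. Neutrophils of control had the cancer marker list at 61.5% of its level in cancer cells.

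The rest of the pathway was followed in 7 lists of other ligands, latency and activation genes, other receptors, SMADs with their inhibitors, extracellular inhibitors, and TGF-beta and BMP response genes. Ratios of these genes are class values, and none was worked out within clusters or at the control mix. In cancer cells the TGF-beta response genes, 8 of 8 compared, gave 1 higher and 1 lower under anti-PD-1, 1 and 2 under anti-LIF, and 1 and 2 under combo, with medians of 0.62, 0.01 and -0.28. Over all genes there, 7.21%, 15.7% and 12.9% were past 2-fold and the medians were 0.18, 0.21 and 0.19. Ccn2, a matrix-associated target of TGF-beta, was lower in cancer cells of all 3 libraries (-1.07, -1.04 and -1.48). Postn, the matrix protein periostin of fibroblasts, was higher under anti-LIF and combo (2.30 and 2.04) from 3.23 CPM in control. Fibroblasts themselves were 6.33% of cells in control and 22.2% and 21.5% in those libraries. The fibroblast marker list in cancer cells, carried by cluster 6 too, ran the other way, at 1146, 874, 458 and 553 CPM. The part of fibroblast RNA in the Postn ratios was not tested. In T cells 4 of the 8 response genes were past 2-fold in each treated library, all higher, beside 6.50%, 11.2% and 10.1% of all genes, with Tgfbi at 2.89, 3.33 and 2.44. The fibroblast marker list in T cells stood at 165, 205, 449 and 417 CPM, and the response list holds fibroblast genes such as Postn and Col1a1. Tgfbi itself was among the leading genes of cluster 10 of the macrophages and monocytes. That class gave 1.81%, 22.6%, 26.1% and 23.4% of the UMIs of the libraries. The parts of fibroblast and macrophage RNA were not tested.

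The contractile genes of the response list were higher in fibroblasts of the treated libraries. Acta2, smooth muscle actin, was at 364, 804, 673 and 809.8 CPM (1.14, 0.89 and 1.15), and Tagln, which also binds actin, at 207, 404, 434 and 474 CPM (0.97, 1.07 and 1.20). Cluster 5, with Lrrc15 among its leading genes, made up 37.7%, 60.9%, 52.5% and 44.3% of fibroblasts, and the part of this shift was not tested. Of the 8 response genes 1, 1 and 2 were past 2-fold in fibroblasts, all higher, with medians of 0.53, 0.55 and 0.37 beside 0.01, -0.01 and 0.02 over all genes. Over all genes 6.65%, 7.01% and 7.26% were past 2-fold in fibroblasts. Among BMP response genes, Id2 was the 1 of 3 lower by 2-fold in cancer cells, under anti-PD-1 (-1.06). Under anti-LIF and combo 0 of the 3 were past 2-fold there, but the list lay lower. Its medians in cancer cells were 0.33, -0.91 and -0.90, beside 0.18, 0.21 and 0.19 over all genes.

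Latency and activation genes differed by class. In T cells 10 of the 12 were compared and 3, 5 and 4 were past 2-fold, all higher, with medians of 0.63, 0.88 and 0.59, beside 6.50%, 11.2% and 10.1% of all genes past 2-fold. In neutrophils 8 were compared, with 1, 1 and 2 higher and 2, 4 and 3 lower, and medians of -0.38, -0.63 and -0.49. Over all genes in neutrophils, 17.0%, 29.6% and 26.5% were past 2-fold and the medians were -0.12, -0.20 and -0.18. In endothelial cells the medians were 0.15, -0.46 and -0.40, beside 0.06, 0.05 and 0.07 over all genes. Ltbp1 was below control in 4, 5 and 6 of 7 classes and Ltbp3 in 4, 5 and 5, both latent TGF-beta binding proteins. Lrrc32 (the TGF-beta docking protein GARP of regulatory T cells) was at 5.54, 34.9, 52.6 and 37.1 CPM in T cells, with log2 ratios of 2.65, 3.24 and 2.74, beside the larger Foxp3 cluster given above, whose part was not tested. In fibroblasts Lrrc32 was at 36.4, 101, 89.2 and 42.6 CPM (1.47, 1.29 and 0.22). In cancer cells 12 latency genes were compared, with 2, 4 and 2 higher, 0, 0 and 2 lower, and medians of 0.17, 0.10 and -0.46. Over all genes in cancer cells, 7.21%, 15.7% and 12.9% were past 2-fold and the medians were 0.18, 0.21 and 0.19. Nrros, the docking protein of myeloid cells, was above control in 7 of 7 classes in all 3 libraries, with log2 ratios of 0.63 to 2.15, 0.57 to 2.50 and 0.40 to 2.13. In cancer cells Nrros was at 0.652 CPM in control and at most 3.07 elsewhere. Macrophages, where Nrros was at 140.0, 228, 309 and 295 CPM, were a larger share of the treated libraries, and the part of their RNA was not tested. Ltbp4, a latent TGF-beta binding protein of the matrix, was at 192, 436, 727 and 341 CPM in endothelial cells and 109, 177, 279 and 126 in fibroblasts. In macrophages, Thbs1, which can activate latent TGF-beta, was at 914, 2446, 2071 and 1953 CPM.

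Signalling genes lower in most classes included Acvr1, Id2 and Smad3. Acvr1, a type I receptor, was below control in 6, 7 and 7 of 7 classes. Its log2 ratios ran from -0.87 to 0.11, -1.32 to -0.15 and -1.42 to -0.36. Id2 was below control in 7 of 7 classes in each treated library, with log2 ratios of -1.41 to -0.12, -0.96 to -0.28 and -1.27 to -0.13. Smad3, which carries the TGF-beta and activin signal, was below control in 7, 6 and 6 of 7 classes. Its level in cancer cells was 154, 94.6, 87.6 and 77.2 CPM and in fibroblasts 67.9, 39.5, 37.9 and 31.6. Other signalling genes went the other way: Smad4 was above control in 6 of 7 classes in each treated library, and the receptor Acvr2a in 5, 5 and 6 of 6. Of genes compared in all 7 classes, 6.73%, 7.08% and 6.37% were below control in all, and 10.4%, 7.49% and 7.73% above, and all classes of a comparison share the 2 libraries. Of the 12 SMADs and SMAD inhibitors, 11 were compared in cancer cells and 0 were past 2-fold under any treatment, Smad3 under combo lying just inside it. Over all genes in cancer cells the share was 7.21%, 15.7% and 12.9%. Bmp5, another BMP ligand, was at 4.28 CPM in cancer cells of control and 0.284 in anti-LIF (-3.78), and -2.68 under combo. Fstl1, a follistatin relative, was higher there under anti-LIF and combo (1.05 and 1.13). The part of the shift between cancer cell clusters in these class ratios was not tested.

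**Figure D5:**
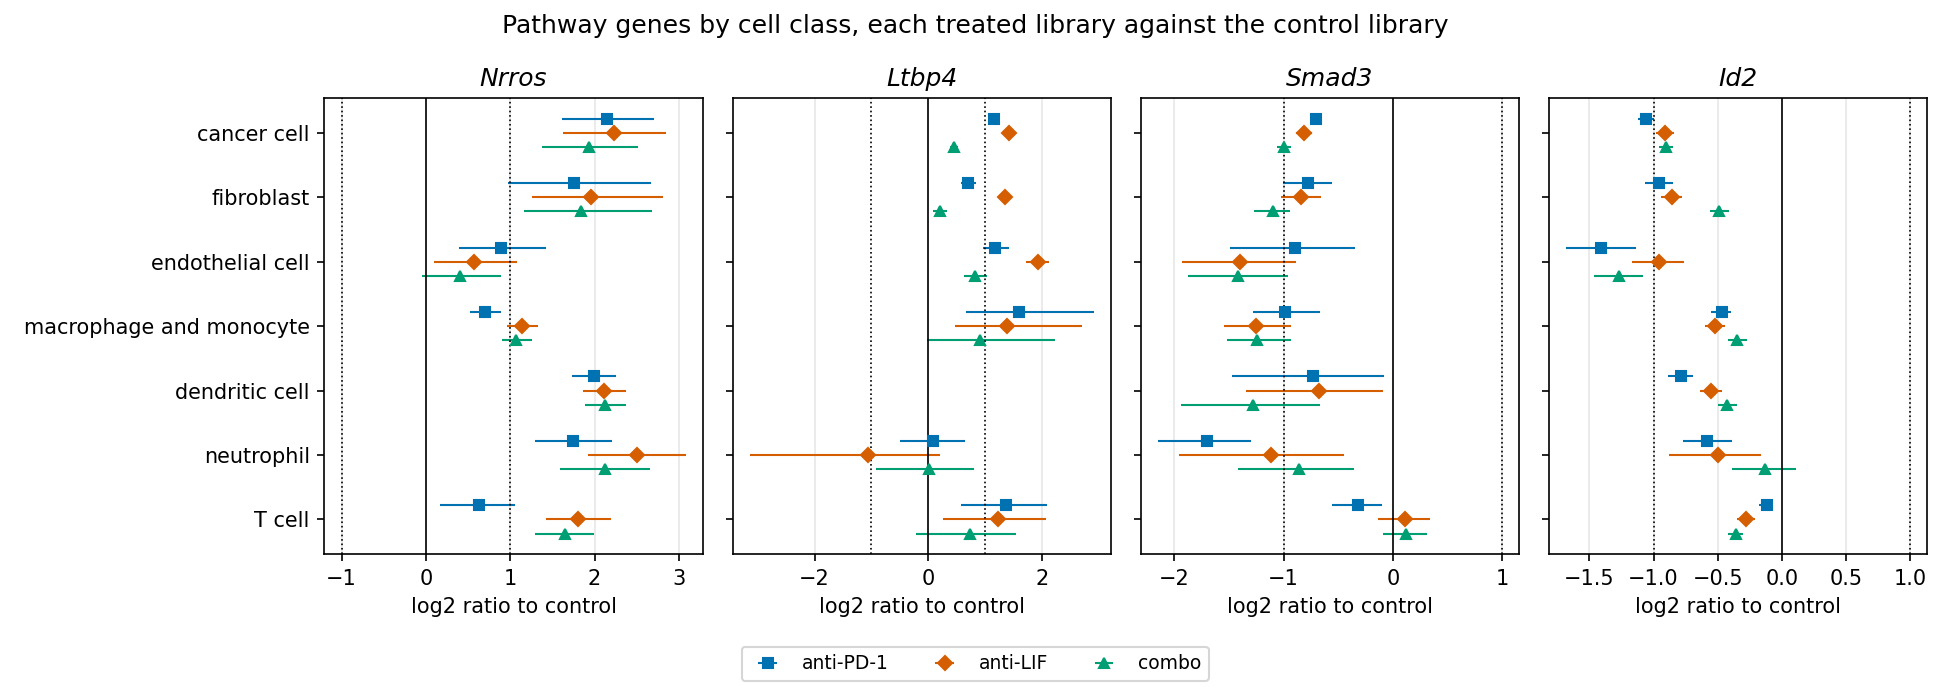
Log2 ratio to control of 4 pathway genes in 7 cell classes, with 95% intervals for counting error and dotted lines at 2-fold, and no point where under 50 UMIs were counted. Nrros lay above 0 and Id2 below 0 in all 7 classes, while Ltbp4 was at 1.41 in cancer cells and 1.35 in fibroblasts of anti-LIF.

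Genes with the most similar pattern were ranked by Pearson's r of log2(CPM + 1) over 44 sums, 11 classes in 4 libraries, among 12412 genes. These sums share libraries and classes, so r is a description. For Inhba the nearest were Fn1 (0.899), Ltbp1 (0.862) and Cpe (0.859), and Cpe was also nearest to Bmp4 (0.911). Fst was nearest to Matn2 (0.905), Islr (0.896) and Ddr2 (0.887). Among the nearest to Tgfb3 were Il33 (0.883) and Mmp14 (0.867), and to Tgfb2 Triqk (0.943) and Dkk2 (0.942). For Tgfbr1 they included Pla2g7 (0.806) and Zeb2 (0.753), and for Tgfbr3 Heg1 (0.883) and Serping1 (0.867). Inhbb was nearest to Prkd1 (0.931), Tgfb1 to Me2 (0.851) and Tgfbr2 to Zfp275 (0.797).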

How the data were processed

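The 4 libraries (SeekOne MM 3' kit, read on NovaSeq or DNBSEQ-T7, which library on which not given) came as raw UMI counts, deposited by the authors as sparse matrices of genes by barcodes and not normalized. The other deposited files list the barcodes and the identifier and symbol of each gene. The submitters' processing notes name mm10 and Seurat 4.0.3, without a role. How reads were aligned and counted, and how cells were called, was not given in the sources used here. Debris and dead cell removal and DNase were optional per the labels' protocols.

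Library totals before filtering were 111164731 UMIs for control, 94984486 for combo, 67503066 for anti-PD-1 and 57720774 for anti-LIF. The filter kept cells with 200 genes or more and no more than 20% mitochondrial UMIs (91.4%, 93.8%, 94.7% and 93.1% in the same order). They were scaled to 10000, log-transformed and clustered in scanpy 1.11.5 with 2000 variable genes, 30 components, 15 neighbours and Leiden resolution 1, with the 10 genes and the pathway lists left out of the variable genes. Clusters were named by marker lists (score at least 0.8, 3 markers detected, next list under 0.7 of the score), with Xist under 0.25 of the median taken as graft. These naming rules were set after clusters had been seen, and classes can differ from those of the study. Unnamed clusters held 2.46% of cells. No doublet caller was run: mixed clusters were left unnamed, and doublets remain in the data.

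UMIs were summed per class and library, for 7 classes with at least 200 cells in every library. Ratios used CPM with 0.5 counts added. Intervals are exact conditional ones for ratios and exact Poisson ones for levels (scipy 1.17.1). With 1 library per group no p-value was computed, and "past 2-fold" is a size, not a test. The ratio code was tested on simulated data. Positions are from GENCODE M21 for GRCm38. Named pathway genes are up to 4 per list, class and comparison with the largest ratio past 2-fold, and genes needed to explain a member, and similar genes the up to 3 with the highest r. The control mix weights the clusters of a class by their shares of its control UMIs. The members and lists were chosen with earlier results of these data known, and the spill level and control mix of clusters were added after the data were seen. Values of some single genes of the lists are not reported here.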

Additional observations from a re-analysis of the deposited data

Results flagged for a closer look

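The ratios of 3 genes went in opposite directions in different cell classes when anti-LIF was compared with control, with each ratio named here past 2-fold. Inhba had a log2 ratio of -1.05 in cancer cells and -1.97 in endothelial cells, but 1.32 in macrophages and monocytes. Tgfb3 had a log2 ratio of -1.24 in macrophages and monocytes and 1.03 in fibroblasts. Tgfbr3 had a log2 ratio of -1.16 in cancer cells and 1.19 in T cells. Each class has 1 library per group, so the difference between classes was not tested. At the control mix of clusters Tgfb3 was at -0.83 in macrophages and 0.90 in fibroblasts, and Tgfbr3 at -0.69 in cancer cells, all inside 2-fold, while Tgfbr3 in T cells was at 1.39. The T cell value leans on 6 Tgfbr3 UMIs in cluster 12 of anti-LIF. The Inhba ratios in cancer cells and in macrophages change direction under an alternative, with the values given under the processing.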

How the results depend on the processing

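No paired analysis was possible because each group is 1 library, and for the same reason no replicate could be left out. Pairs past 2-fold numbered 6 under anti-PD-1, 22 under anti-LIF and 16 under combo. With at least 200 UMIs in both libraries together there were 3 and 14 under anti-PD-1 and anti-LIF, and with at most 10% mitochondrial UMIs 13 under anti-LIF. With levels over 1.5 times spill only, an alternative chosen after seeing the data, there were 3, 10 and 7. All other alternatives gave 5 to 7, 16 to 23 and 13 to 18. Of single ratios, 3 that were past 2-fold reversed: at the control mix of clusters, also chosen after seeing the data, Fst (0.10) and Inhba (0.08) in cancer cells under anti-LIF, and with each cell's class set by its own markers Inhba in macrophages under anti-LIF (-0.84). The cause was not tested. Of 23 single ratios past 2-fold among 73 followed, 22 were still past it after centring on the median gene or TMM scaling (edgeR 4.0.16), 23 with cells of at least 1500 UMIs, 17 at 10% mitochondrial UMIs, 15 as a mean over cells and 13 with classes set per cell. At the control mix 5 of 15 were. Low counts limit Tgfb1, Tgfb2 and Inhbb outside their leading classes.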

Other observations

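Some cells outside the 7 compared classes also carried these genes. Tgfbr1 was at 117 CPM in cluster 27, an unnamed group of 233 cells led by Ctsk, Acp5 and Mmp9, genes that osteoclasts use to resorb bone, and at 96.1 CPM in mast cells. Tgfb1 was at 38.1 CPM in cluster 24, unnamed and led by genes such as Prg2, Ccr3 and Siglecf that are known from eosinophils, and at 34.6 CPM in NK cells. Inhbb was at 101 CPM in the host gland cells of cluster 19. Cluster 22, unnamed because it held T cell and cancer cell genes together, had Bmp4 at 472, Fst at 430.1 and Inhba at 348 CPM.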
